A study of Mus with 7 samples.

Results

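Within one library of fetal liver-derived macrophages (FLMs), the cells with the most mitotic transcripts were compared with the cells with the fewest. The library was Veh.LPS.0, and each cell was scored by the unique molecular identifiers (UMIs, 1 per captured RNA molecule) of Mki67, Top2a, Cdk1, Ccnb1 and Cenpf divided by all UMIs of the cell. Cells had over 20000 UMIs, at least 2000 genes and under 20% of UMIs from mitochondrial (mt-) genes. The cells were chosen by these measured values alone, ranked by score and divided into 4 bins of equal size. The top bin (high bin) held 620 cells and the bottom bin (low bin) 620, out of 2481 Veh.LPS.0 cells past these limits and 11640 such cells among 31151 barcodes in the series. The lowest score in the high bin was 2200 CPM (counts scaled to a total of 1000000) and the nearest cell outside had 2186 CPM, while the low bin ended at 159.5 CPM with 160.0 CPM just outside. Score UMIs were absent from 83 cells.

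The series measured RNA in single cells from 7 FLM samples by droplet sequencing, with 1 library per condition. FLMs are wild-type (wt) mouse macrophages that renew themselves in culture with GM-CSF, a growth factor kept at 30 ng/mL in every condition, so the culture is a proliferating model and not tissue macrophages taken directly from an animal. Con cells were in 10% FBS and were collected before any treatment. The other cultures spent 24 h in 0.25% FBS with the vehicle (Veh, 8.3 µM BSA) or with 25 µM of the omega-3 fatty acid DHA on the same BSA, and then received no LPS (Veh.LPS.0, DHA.LPS.0) or 20 ng/mL LPS for 1 h (Veh.LPS.1, DHA.LPS.1) or 4 h (Veh.LPS.4, DHA.LPS.4). All cells of the comparison had therefore been in low serum with BSA and had seen neither DHA nor LPS.

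A dividing cell first copies its DNA in S phase and then separates the copies in mitosis. Helicase loading proteins and DNA polymerases serve the first step, while cyclin B kinases, the spindle, the kinetochores and the anaphase-promoting complex (APC/C) serve the other. Many of these genes are transcribed in waves, with E2F factors driving genes of the G1 to S transition and a FOXM1- and MYBL2-containing complex driving late genes.

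The scored cells kept macrophage markers on both sides of the comparison. Every cell of both bins had UMIs of at least 6 of the 9 macrophage markers (Spi1, Csf1r, Adgre1, Itgam, Fcer1g, Tyrobp, Cd68, Cd14 and Lyz2), and the median cell had 9. No cell in either bin had 3 markers of megakaryocytes, lymphoid cells, hepatocytes, mast cells, dendritic cells, neutrophils, stromal cells or erythroid cells. The summed level of the 5 hepatocyte markers was 4.37 CPM in the high and 5.50 CPM in the low bin with 4 of the 5 at 0 in each, and no other of these lists reached 2 CPM in either bin. Only 6 of the 2481 barcodes were shared with a cell of another library. No doublet caller was run, and 22 high and 18 low cells had over 2 times the library's median of 36897 UMIs.

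Depth moved with the score. The median cell had 33315, 33072, 35639 and 47149 UMIs in the 4 score bins from low to high, and the median number of genes was 5316, 5436, 5687 and 6339. The mt- share was lower at each step, with medians of 7.91, 7.70, 7.31 and 7.15%. Levels are therefore given as CPM of the summed UMIs of a bin, 29988289 UMIs in the high and 22710949 in the low bin. With only cells of 30000 to 50000 UMIs, the medians were 44258 and 34755 UMIs, and 814 genes were higher and 198 lower against 844 and 147 with all cells.

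**Figure D1:**
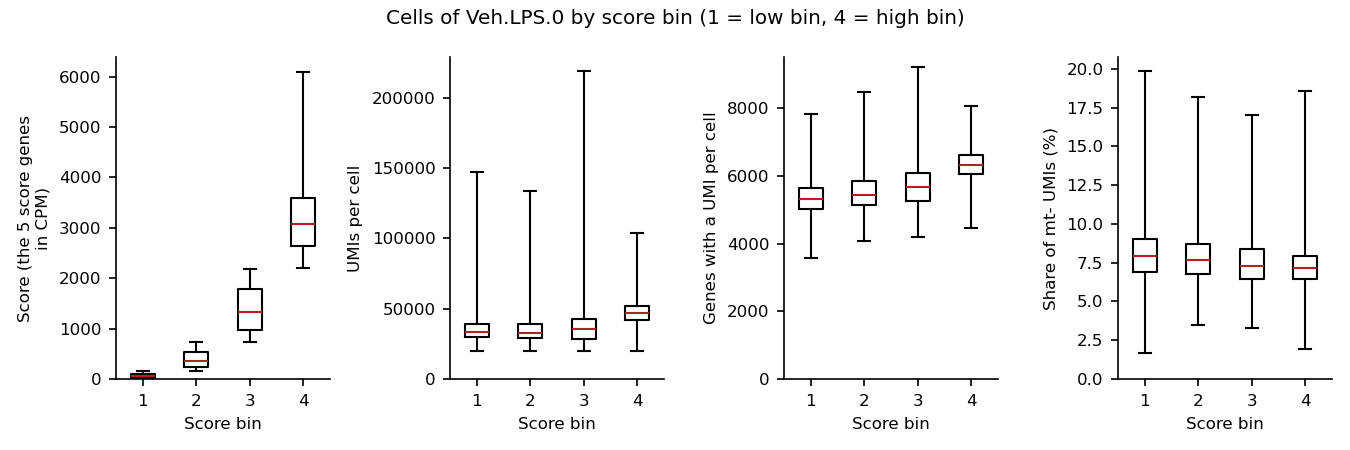
Score, UMIs, genes and mt- share of Veh.LPS.0 cells in the 4 score bins (620, 620, 621 and 620 cells, 1 = low and 4 = high). Boxes span the 25th to 75th percentile with the median in red and whiskers reach the lowest and highest cell. Median UMIs stood between 33072 and 35639 in bins 1 to 3 and at 47149 in bin 4.

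The 5 score genes chose the cells, so their values only describe the split. The median high cell had 46 UMIs of Mki67, 48 of Top2a, 13 of Cdk1, 9 of Ccnb1 and 29 of Cenpf. In the low bin the median was 1 UMI for Top2a and 0 for the others, and 381 of 620 cells had no Mki67 UMI. A UMI of Ccnb1 was present in 97.1% of high and 8.71% of low cells once each cell was thinned to 20000 UMIs. The library has no other cell type in which to measure free RNA, so the part of background in such low shares was not tested.

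Across the other genes, 6495 were detected, with a UMI in 50% or more of the high or of the low cells. Of these, 844 (13.0%) were over 1.5-fold higher in the high bin and 147 (2.26%) over 1.5-fold lower. These are calls by size within 1 library, whose cells are not replicates and chose the split, so they carry no test. The median log2 ratio was 0.09 over the 6495 genes, 1.06 over the higher and -0.75 over the lower genes. Among the detected genes 231 passed a log2 ratio of 2 and 82 passed 4 on the higher side, against 3 beyond 2 and 0 beyond 4 on the lower side. Over all 11887 genes with at least 10 UMIs, of which 14 had no UMI in one of the bins, the counts were 377 and 125 higher against 136 and 17 lower. With the detection limit dropped, 1579 genes were higher and 1254 lower, so that 55.7% of the calls were on the higher side in place of 85.2%. Deeper cells pass that limit more easily. With the limit kept and each cell thinned to 20000 UMIs, 4086 genes were detected. Of these, 461 were higher and 83 lower, with 84.7% of the calls on the higher side.

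Most called genes followed the score step by step. The level was higher at every step from the low to the high bin for 669 of the 844 higher genes, and 148 peaked in bin 3. Of the 147 lower genes, 120 were lower at every step and 133 had their peak in the low bin. The call compares bins 4 and 1, so a higher gene cannot peak in bin 1 nor a lower gene in bin 4. Of all 6495 detected genes, 1421, 1425, 1241 and 2408 peaked in bins 1, 2, 3 and 4. These counts therefore only describe the course of the called genes. The gene lists described below included 151 higher genes and 22 lower ones.

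**Figure D2:**
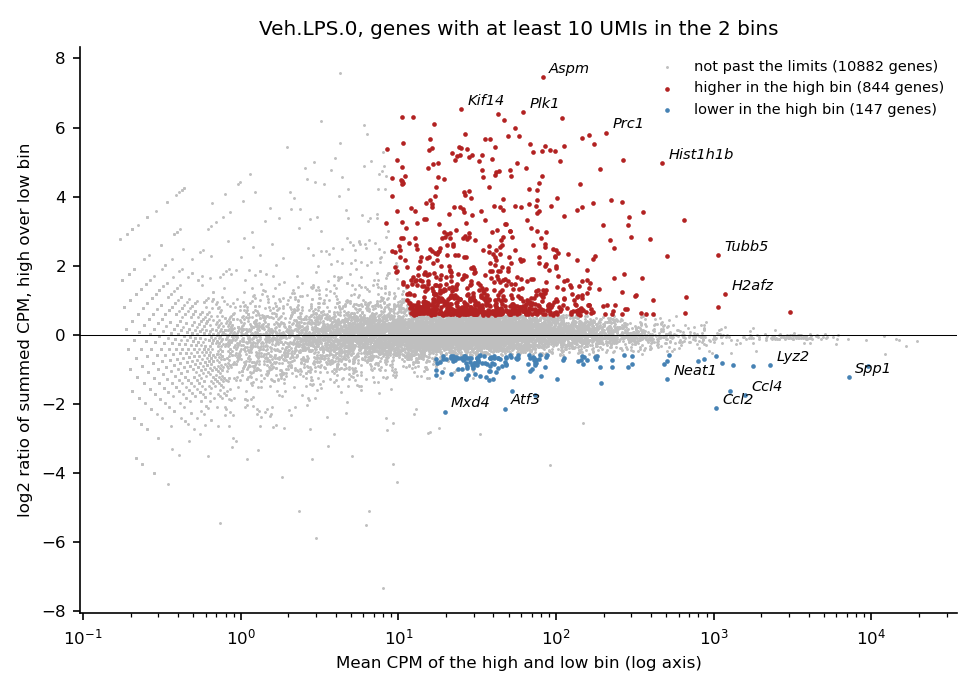
Ratio of summed CPM in the high over the low bin of Veh.LPS.0 (log2) against the mean CPM of both bins (log axis), 1 point per gene, without the score genes. The 844 higher genes (red) reach a log2 ratio of 7.47 for Aspm and the 147 lower genes (blue) reach -2.22 for Mxd4.

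Genes of the spindle and of cell division had the highest ratios. Aspm, a spindle pole protein, stood at 0.925, 14.4, 73.7 and 164 CPM over the 4 bins, 178-fold higher in the high than in the low bin (95% counting interval 116 to 287). Kif14, a kinesin of cytokinesis, had a log2 ratio of 6.54, and Plk1, the polo kinase that acts throughout mitosis, 6.44 with 122 against 1.41 CPM. Esco2, which acetylates cohesin, reached 6.39 and Kif11, the motor that pushes spindle poles apart, 6.27. Ankle1, Kif18b, Kif4, Espl1 (separase), Ckap2l, Prc1 (a bundler of midzone microtubules), Ttk (a checkpoint kinase), Hmmr, Cep55 and Sgo2a completed the 15 highest with log2 ratios of 5.75 to 6.32. After thinning, Aspm had a UMI in 89.5% of high and 1.61% of low cells. In the RefSeq annotation of GRCm38.p6, Aspm lies on chromosome 1 at 139454188 to 139494088 and Plk1 on chromosome 7 at 122159435 to 122169884.

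Every listed gene of mitosis was higher. All 17 mitotic kinases and cyclins passed the limits (median log2 ratio 4.51), as did 27 of 27 spindle and cytokinesis genes (4.63), 20 of 20 kinetochore and checkpoint genes (3.80), 16 of 16 chromosome structure genes (3.33) and 8 of 8 APC/C genes (2.91). Over all detected genes 13.0% were higher. Genes rare in low cells pass the detection limit through the high bin, which was chosen for mitotic transcripts. These counts therefore only describe the lists, as do the replication and histone counts below. The ratio varied within the mitotic lists. Among kinetochore genes it ran from 1.22 for Cenpw to 5.75 for Sgo2a, with Cenpe, the kinetochore motor, at 4.81 and Bub3, a checkpoint protein, at 1.55. Some of the smaller ratios were of genes that low cells also held. Tubb5, a tubulin, went from 358 to 1762 CPM (log2 ratio 2.30) and H2afz, a histone variant, from 724 to 1639 CPM (1.18), with a UMI in 98.1% and 100% of thinned low cells, against 8.39% for the APC/C activator Cdc20 (4.84). The summed level of the spindle list was 807, 1713, 4137 and 7025 CPM over the bins.

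Genes of DNA replication were also higher, with smaller ratios and a different course. All 22 DNA synthesis genes passed the limits (median log2 ratio 1.57), and 12 of 18 replication licensing genes did (1.13), of which 14 were detected. The summed licensing level was 352, 835, 1070 and 848 CPM over the bins, and 14 of its 18 genes were highest in bin 3. The last step was a fall to 0.793 times the level of bin 3 (counting interval 0.779 to 0.807). DNA synthesis genes summed to 522, 1209, 1850 and 1683 CPM, with 14 of 22 highest in bin 3. Over all 11873 genes with at least 10 UMIs and a UMI in both the high and low bin, 2295 were highest in bin 3. Mcm3, a subunit of the MCM helicase, showed the course plainly at 54.4, 133, 156 and 98.3 CPM. Cdc6, the helicase loader, stood at 5.77, 26.6, 27.7 and 7.64 CPM, so its ends differed by only 0.40 on the log2 scale (counting interval of the ratio 1.06 to 1.65). Dbf4, the activator of the Cdc7 kinase, instead climbed to its peak of 162 CPM in the high bin (log2 ratio 2.48).

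Replication-dependent histones had their largest step between bins 2 and 3. Their summed level was 214 and 300 CPM in bins 1 and 2 and 2283 and 3249 CPM in bins 3 and 4, and 11 of 12, all that were detected, were higher with a median log2 ratio of 4.44. Hist1h1b, a linker histone, went from 28.9 to 913 CPM. Histone genes share near-identical copies and most lack a poly(A) tail, on which the capture relies, so single histone values are uncertain.

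**Figure D3:**
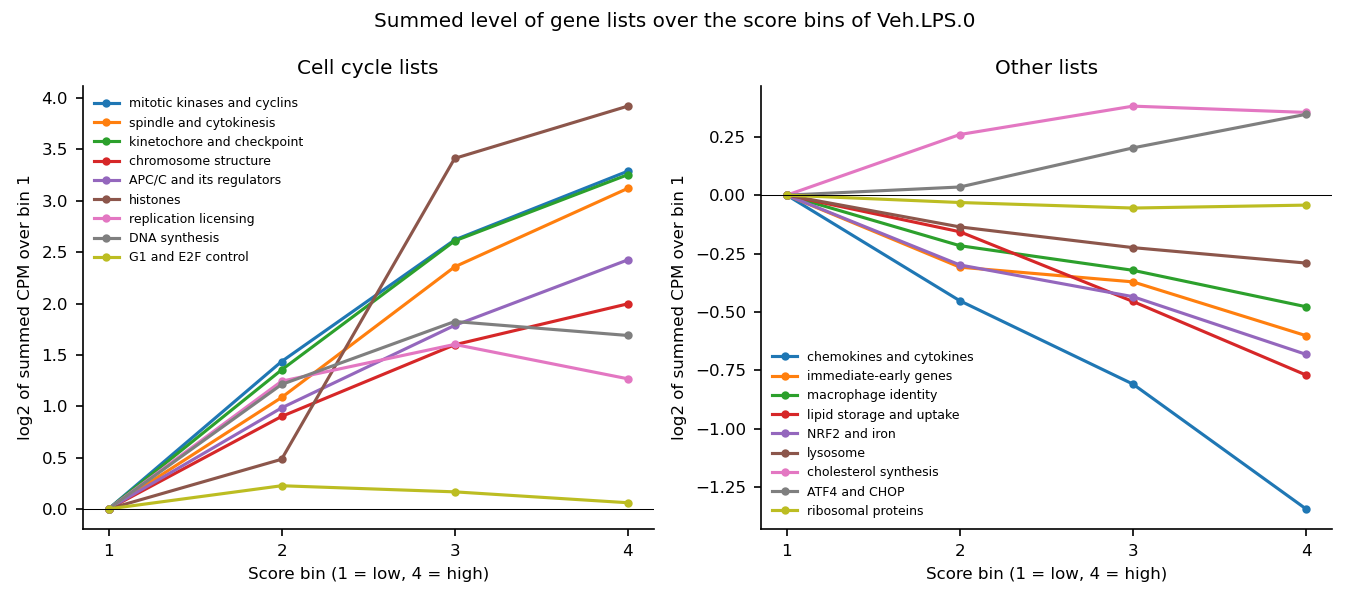
Summed CPM of gene lists in each score bin of Veh.LPS.0 over that of bin 1 (log2), cell cycle lists on the left and others on the right, 1 line per list. Licensing and DNA synthesis lists peak in bin 3 (1070 and 1850 CPM) and mitotic lists in bin 4. The chemokine and cytokine list, mostly Spp1 in bins 1 and 4, is lower at every step, from 18111 to 7140 CPM.

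Within the high bin, cells differed in which part of the cycle they expressed. Each cell was thinned to 20000 UMIs and the UMIs of a list were summed. The median high cell had 16 licensing UMIs (lowest 4, highest 45), 31 DNA synthesis UMIs (8 to 79), 76 histone UMIs (0 to 202) and 36 APC/C UMIs (8 to 79). Over the 620 cells, licensing and DNA synthesis sums ran together (Spearman's rho 0.67), and both ran against the APC/C sum (-0.53 and -0.62). APC/C and kinetochore sums ran together (0.55), and the score itself ran with the spindle sum (0.55) and against the DNA synthesis sum (-0.33). These values describe cells of 1 library that share its depth and composition.

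G1 regulators and brakes on the cycle were divided. Over all detected genes 13.0% were higher and 2.26% lower, the shares that stand beside each count in this paragraph. Of 23 G1 and E2F genes, 20 were detected, 10 were higher, 1 was lower and the median log2 ratio was 0.70. E2f8, a late E2F repressor, was higher (4.01) and Ccnd2, a D-type cyclin of G1, was the lower one at 179, 176, 133 and 109 CPM. Ccnd1 had a log2 ratio of -0.37 and Cdk4 of 0.47, neither past the limit. Among 13 brakes with enough UMIs, 8 were detected, 4 were higher and 1 was lower. Cdkn2c and Cdkn2d, inhibitors of CDK4 and CDK6, were higher in the high bin, at 47.2 against 6.87 CPM and 128 against 27.1 CPM. Mxd4, a MYC antagonist, had the lowest ratio of all called genes, with 32.4, 18.3, 9.74 and 6.94 CPM. Cdkn1a (p21), a p53 target that blocks CDKs, had 443 CPM in the low and 591 CPM in the high bin (log2 ratio 0.42, not past the limit). Gtse1 was the 1 higher gene among 8 detected of 12 p53 targets, and 0 were lower. Plk2, also a p53 target, had a log2 ratio of -2.83 but was not detected in enough cells to be called.

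Chemokines and other immune genes were among the lowest ratios. After Mxd4 came Atf3, a stress-induced factor (log2 ratio -2.13), and Ccl2, the monocyte chemokine, which went from 1678 to 1059, 696 and 388 CPM (-2.11). Ccl4 (-1.74), Ccl3 (-1.61), the interleukin-1 antagonist Il1rn (-1.73), the interferon-responsive Ifitm6 (-1.62), the chemokine receptor Ccr1 (-1.28) and the checkpoint ligand Vsir (-1.25) were also among the 15 lowest. Spp1 (osteopontin), the most abundant of them, had 10110 CPM in the low and 4335 CPM in the high bin (-1.22). The others were Sqstm1, Fkbp11, Pus3, the nuclear non-coding RNA Neat1 and Rgs1, from -1.40 to -1.27. Ccl3 and Ccl4 overlap in the RefSeq annotation of chromosome 11, so counts may be shared between them. Mxd4 lies on chromosome 5 at 34176580 to 34187710 and Ccl2 on chromosome 11 at 82035577 to 82037452.

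Of 17 chemokines and cytokines with enough UMIs, 8 were detected and so could be called, and 7 of these 8 were lower and 0 higher, where 2.26% of all detected genes were lower. Lower genes pass the limit through the low bin, so this count only describes the list. The median log2 ratio of the 17 was -1.61, against 0.04 over all 11873 genes with at least 10 UMIs and a UMI in both bins. After thinning, the median cell had 106 UMIs of the list in the high bin (25th to 75th percentile 70 to 163, highest 1410) and 184 in the low bin (96.8 to 349, highest 2516), so the cells overlapped. Most of the list's summed level in both bins was Spp1. Ccl7 had a still lower ratio (-3.75) but was in too few cells to pass the limit. Cxcl10, induced by interferon, went the other way at 1.28 against 13.3 CPM and was also short of the limit.

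Macrophage identity genes lay slightly below 0. All 16 with enough UMIs had ratios below 0 (median -0.29). Of the 14 detected, 3 passed the limit, where 2.26% of all detected genes were lower. That share also stands beside the lipid, NRF2 and iron counts below. Lyz2 (lysozyme), 1 of the 3, had 2961, 2211, 2109 and 1606 CPM over the bins. Lpl, which hydrolyses lipoprotein triglyceride, went from 2324 to 1244 CPM (-0.90) and was 1 of 2 lower genes among 5 detected of 11 for lipid storage and uptake. Fabp4, a fatty acid carrier, had a log2 ratio of -3.60 but was not detected in enough cells to be called. In the NRF2 and iron list 4 of 12 detected genes were lower, including Ftl1, the ferritin light chain, at 12432 against 6712 CPM (-0.89), whose counts may hold reads of near-identical pseudogene copies. Sqstm1 (p62) had 279 CPM in the low bin and 124, 120 and 105 CPM in the others.

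The remaining lists differed in how many genes passed the limits. Over all detected genes 13.0% were higher and 2.26% lower, the shares that stand beside the counts here. All 13 glycolysis genes, 18 nuclear and 13 mitochondrial genes of the respiratory chain and 22 ribosomal protein genes were detected, as were 12 of 15 nucleolus and 7 of 9 antigen presentation genes, and 0 passed the 1.5-fold limit in either direction. Interferon-induced genes also had 0 called, but only 4 of the 13 with enough UMIs were detected, and the median log2 ratio of the 13 was -0.40. Cholesterol synthesis had all 20 ratios above 0 with a median of 0.39, of which Mvk, mevalonate kinase, passed the limit (0.68). Immediate-early genes had 2 lower genes of 7 detected and lysosomal genes 1 of 18. Of 11 detected genes of the ATF4 and CHOP stress response, Psat1 (0.83) and Mthfd2 (0.86), enzymes of serine and folate metabolism, were higher and Ddit3 (CHOP) was lower (-1.21).

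The same split was then made in the 6 other libraries, whose cells were not part of the Veh.LPS.0 bins. High and low bins were set within each library by the same 5 genes, from 173 to 768 cells a bin, and the summed UMIs were tested with edgeR's quasi-likelihood test with library as a block. The libraries differ in treatment, so the spread below is between conditions and p-values hold for the mean over them. All bins were cut on mitotic transcripts. For genes that move with the cell cycle, the p-values below therefore do not test an independent outcome. Their bins also stand for different scores. The high bin began at a score of 2714 CPM in Con, 1472 in DHA.LPS.0, 2364 in Veh.LPS.1 and 1369 in DHA.LPS.1, but at 284 in Veh.LPS.4 and 645 in DHA.LPS.4. Cells at or above the Veh.LPS.0 cutoff were 33.5% of Con, 17.3% of DHA.LPS.0, 28.0% of Veh.LPS.1 and 15.6% of DHA.LPS.1 cells. They were 1.21% of Veh.LPS.4 (12 of 993 cells, exact interval 0.626 to 2.10%) and 3.90% of DHA.LPS.4 cells. Past the cell limits were 2908 of 4652 barcodes in Con, 2481 of 4461 in Veh.LPS.0, 698 of 3773 in DHA.LPS.0 and 3073 of 5705 in Veh.LPS.1. In DHA.LPS.1 they were 795 of 4395, in Veh.LPS.4 993 of 2443 and in DHA.LPS.4 692 of 5722. The percentages hold for these cells only, and the effect of the depth limit on them was not tested.

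Of 10409 genes tested, 930 (8.93%) were higher and 813 (7.81%) lower in the high bins at an edgeR adjusted p under 0.05 and over 1.5-fold. Scaling by library totals in place of TMM factors, an alternative chosen after seeing the data, gave 1260 (12.1%) and 495 (4.76%), or 71.8% against 53.4% of calls on the higher side. Without the library block, which leaves differences between libraries in the spread, there were 661 (6.35%) higher and 172 (1.65%) lower genes. That scaling moved the median log2 of all tested genes from -0.05 to 0.09, so small changes of a list are read against that median.

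Most called genes of Veh.LPS.0 were called in these libraries too. Of its 844 higher genes, 625 (74.1%) were called higher by edgeR, and 799 had a ratio above 0 in each of the 6 libraries. Of its 147 lower genes, 113 (76.9%) were called lower, and 119 were below 0 in each. All 991 genes had the same sign in the edgeR fit as in Veh.LPS.0. Over all tested genes 8.93% were called higher and 7.81% lower. The share of all genes with the same sign in each of the 6 libraries, or in the edgeR fit and Veh.LPS.0, was not counted. The same 5 genes set the bins in every library, so this recurrence is in part built into the split.

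**Figure D4:**
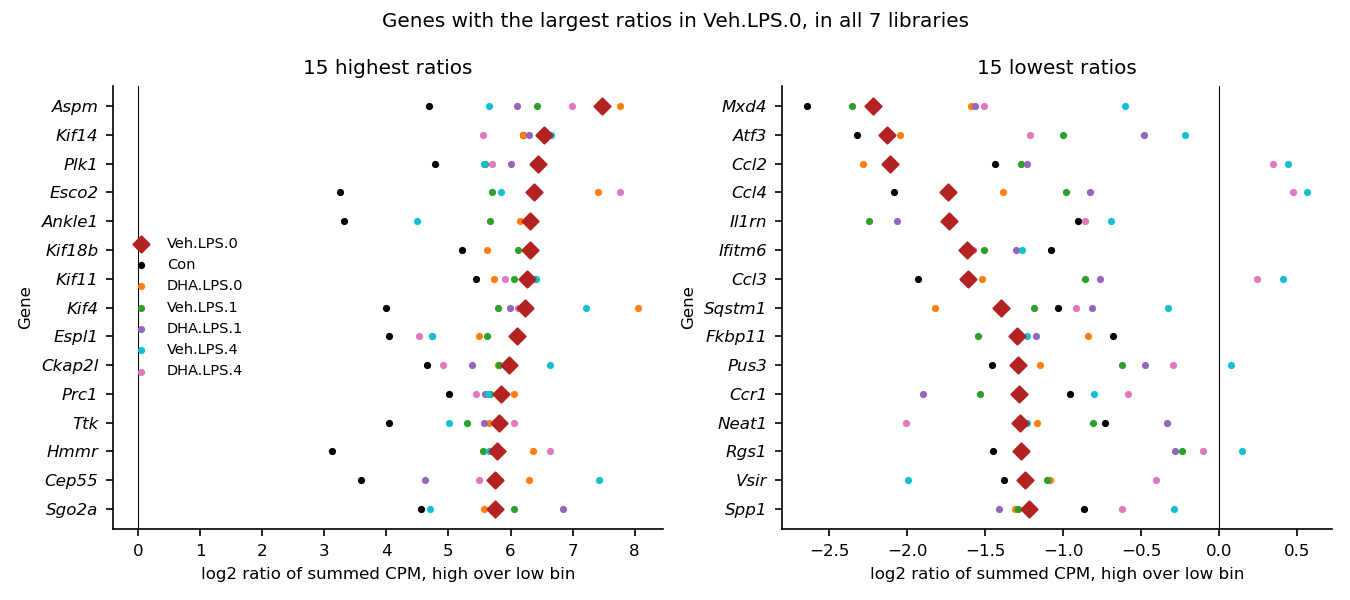
Ratio of summed CPM in the high over the low bin (log2) for the 15 genes with the highest and the 15 with the lowest ratio in Veh.LPS.0 (diamonds) and in each of the 6 other libraries (dots, with at least 10 UMIs). All dots of the 15 highest lie above 0, while Ccl2, Ccl3 and Ccl4 lie above 0 in both libraries at LPS 4 h.

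Mitotic genes were higher across libraries. Aspm had 163 against 6.30 CPM in Con, 153 against 0.707 in DHA.LPS.0, 135 against 1.56 in Veh.LPS.1, 114 against 1.66 in DHA.LPS.1, 18.7 against 0.374 in Veh.LPS.4 and 49.2 against 0.385 in DHA.LPS.4. Its level in the high bin was thus low in both libraries at LPS 4 h, while the ratio stayed large (mean log2 6.27 ± 1.07, SD over 6 libraries, edgeR adjusted p = 2.33e-06). Kif14 varied less (6.24 ± 0.385, edgeR adjusted p = 1.10e-08), as did Prc1 (5.57 ± 0.344, edgeR adjusted p = 2.51e-08). By edgeR all 17 mitotic kinases and cyclins, 27 spindle, 20 kinetochore, 16 chromosome structure, 8 APC/C and 12 histone genes were higher. Over all tested genes 8.93% were higher. The bins of each library were cut on mitotic transcripts of that same library, so higher levels of other mitotic genes were built into the split. The p-values of this paragraph therefore do not test that outcome. These counts only describe the lists, as do the licensing and DNA synthesis counts below.

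Among the pathway lists, replication licensing had the widest range of medians over libraries. By edgeR 16 of 18 licensing and 21 of 22 DNA synthesis genes were higher, and 9 and 14 without the block. Over all tested genes 8.93% were higher, and 6.35% without the block. The median log2 ratio of the licensing list was 0.17 in Con, 1.13 in Veh.LPS.0, 1.30 in Veh.LPS.1, 2.04 in DHA.LPS.0, 2.01 in DHA.LPS.1, 2.72 in Veh.LPS.4 and 2.68 in DHA.LPS.4. Mcm3 differed mainly in the low bin, with 133 CPM in Con, 57.4 in Veh.LPS.1, 27.5 in DHA.LPS.0, 30.6 in DHA.LPS.1, 9.51 in Veh.LPS.4 and 11.9 in DHA.LPS.4, while its high bins held 108 to 126 CPM (edgeR log2 1.67, adjusted p = 0.0123, and 0.104 without the block). In Con the low bin had a median score of 220 CPM, against 65.1 in Veh.LPS.0 and 0 in both libraries at LPS 4 h.

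**Figure D5:**
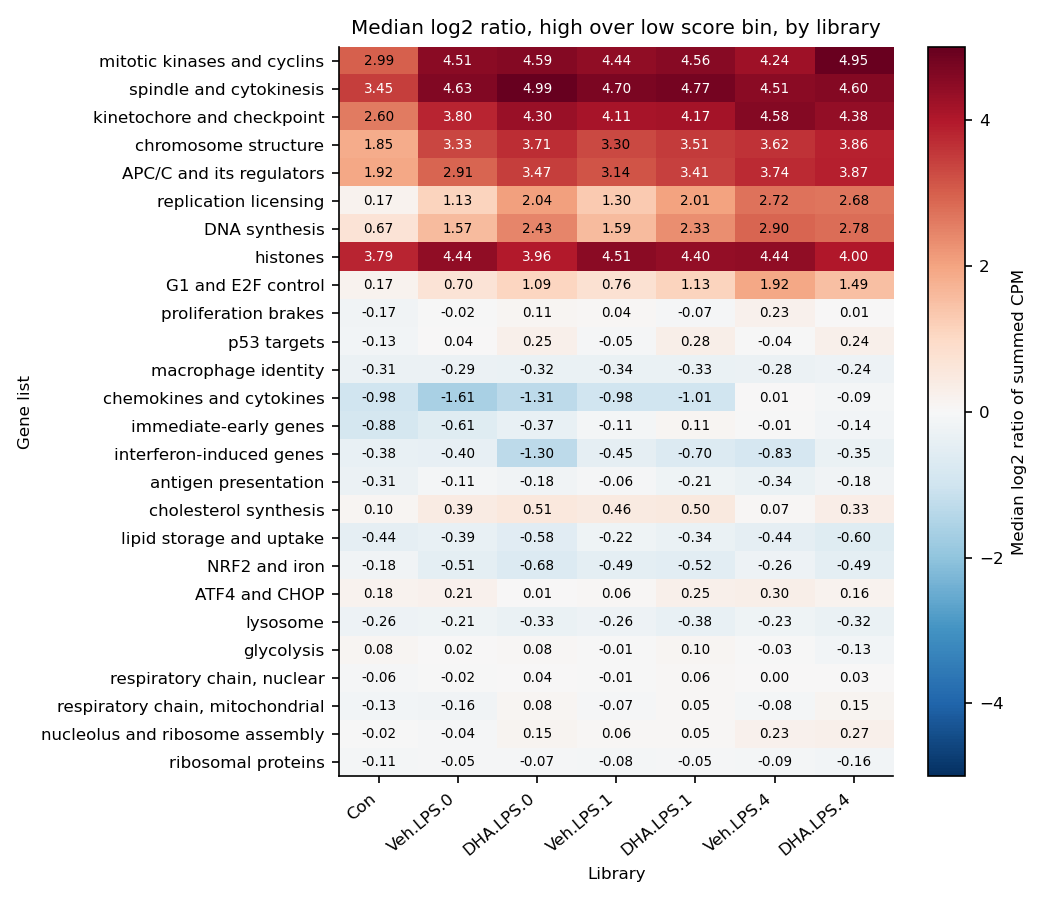
Median log2 ratio of summed CPM, high over low score bin, for each gene list (rows) in each of the 7 libraries (columns), red above and blue below 0. Licensing runs from 0.17 in Con to 2.72 in Veh.LPS.4, and chemokines from -1.61 in Veh.LPS.0 to 0.01 in Veh.LPS.4.

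Brakes on the cycle were again divided. The bins were cut on mitotic transcripts, so p-values of genes here that move with the cycle only describe the split. Cdkn2c (mean log2 3.07 ± 0.602, edgeR adjusted p = 1.50e-06) and Cdkn2d (2.03 ± 0.371, edgeR adjusted p = 8.76e-06) were higher in all 6 libraries. Mxd4 was lower in all 6, from -2.64 in Con to -0.61 in Veh.LPS.4 (edgeR adjusted p = 0.000243), and Ccnd2 too (-0.58 ± 0.217, edgeR adjusted p = 9.52e-05). Btg1, an antiproliferative gene, was below the limit in Veh.LPS.0 (-0.55) but called lower here (edgeR log2 -0.79, adjusted p = 6.18e-05, and 0.362 without the block). Cdkn1a was above 0 in all 6 (mean log2 0.53 ± 0.240), short of 1.5-fold in the fit (edgeR log2 0.39, adjusted p = 0.00209, and 0.568 without the block). Of 12 p53 targets edgeR called 1 higher (Gtse1) and 2 lower, where 8.93% and 7.81% of all tested genes were. The lower ones were Plk2 (edgeR log2 -1.79, adjusted p = 0.00178) and Trp53inp1 (-0.76, adjusted p = 0.0355). Both calls were lost without the block (edgeR adjusted p = 0.325 and 0.606).

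Chemokine ratios varied between libraries. By edgeR 10 of 17 chemokines and cytokines were lower, where 7.81% of all tested genes were. Without the block 1 was lower, where 1.65% of all tested genes were. With the Veh.LPS.0 cutoffs in every library 12 of 17 were lower, where 1045 of all 10526 genes tested were. Only 12 Veh.LPS.4 cells then reached the high bin. The list's median log2 ratio lay between -1.31 and -0.98 in the 4 libraries at LPS 0 or 1 h and at 0.01 and -0.09 at 4 h. Ccl2 had 426 CPM in the high and 1154 CPM in the low bin of Con, 421 and 2054 in DHA.LPS.0, 1593 and 3843 in Veh.LPS.1 and 1598 and 3766 in DHA.LPS.1. At 4 h the order turned, with 13210 and 9727 CPM in Veh.LPS.4 and 13718 and 10811 CPM in DHA.LPS.4. The edgeR call of Ccl2 (log2 -1.05, adjusted p = 0.0312) was lost without DHA.LPS.0 (-0.77, adjusted p = 0.0795), Veh.LPS.1 (-0.97, adjusted p = 0.0864) or DHA.LPS.1 (-0.97, adjusted p = 0.0884) and with library totals (adjusted p = 0.0518). Without the block its edgeR log2 was -0.10 (adjusted p = 0.971), and that of Ccl3 was -0.07 (adjusted p = 0.981). Ccl3 was called (edgeR log2 -0.88, adjusted p = 0.0330), and likewise not without any 1 of these 3 libraries (adjusted p 0.0796 to 0.0998) or with library totals (0.0633). Ccl4 missed the threshold (edgeR adjusted p = 0.0583) but passed it without Veh.LPS.4 (0.0167) or DHA.LPS.4 (0.0217). It also passed with RLE factors (0.0471), with no filter beyond 1 UMI (0.0393) and with the Veh.LPS.0 cutoffs in every library (0.00146). With all 7 libraries, which include the one that chose the gene, the edgeR adjusted p was 0.0194. Rgs1 was called (edgeR adjusted p = 0.0268) but not without DHA.LPS.0 (0.0736) or DHA.LPS.1 (0.0506) or with library totals (0.0679) or without the block (0.893).

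Spp1 was lower in all 6 libraries, from -1.41 in DHA.LPS.1 to -0.29 in Veh.LPS.4 (edgeR log2 -1.11, adjusted p = 0.000333). Lyz2 varied little, from -1.06 in Veh.LPS.4 to -0.65 in Con (-0.81 ± 0.160, edgeR adjusted p = 3.83e-06), and so did Lpl (-0.68 ± 0.0740, edgeR adjusted p = 8.39e-07). Ifitm6 (-1.40 ± 0.215, edgeR adjusted p = 3.17e-06), Atf3 (edgeR log2 -1.28, adjusted p = 0.00282), Sqstm1 (-1.15, adjusted p = 0.000398) and Ftl1 (-0.74, adjusted p = 5.70e-05) were called lower. Il1rn, Ccr1, Vsir, Fkbp11 and Neat1 were also called lower and were below 0 in all 6 libraries. Pus3 was called lower (edgeR log2 -0.80, adjusted p = 0.00578) but was above 0 in Veh.LPS.4 (0.08), and Ddit3, also called lower, was above 0 in Veh.LPS.4 and DHA.LPS.1 (0.03 in each). Without the block the calls of Spp1 (edgeR adjusted p = 0.376), Atf3 (0.658), Sqstm1 (0.439), Il1rn (0.623), Ccr1 (0.183), Vsir (0.231), Neat1 (0.375), Pus3 (0.0958) and Ddit3 (0.322) were lost.

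Small list changes need the share and the median of all genes beside them. Over all genes 7.81% were lower, or 4.76% with library totals. By edgeR 4 of 15 macrophage identity genes were lower (2 with library totals), 7 of 14 NRF2 and iron genes (5), 5 of 20 lysosomal genes (4), 5 of 10 lipid genes (4), 9 of 14 interferon-induced genes (8) and 3 of 11 immediate-early genes (1). Without the block 4, 3, 2, 2, 0 and 0 of these lists' genes were lower in the same order, and 1.65% of all genes. Cholesterol synthesis genes had 0 calls in either direction (2 higher with library totals), and 0 by DESeq2. Of these 20 genes, 7 had an edgeR adjusted p under 0.05 and 9 an unadjusted one. Of all 10409 genes tested, 5411 had an edgeR adjusted p under 0.05 and 6073 an unadjusted one. All 22 ribosomal protein genes were below 0 with TMM factors (median log2 -0.23) and their median was -0.09 with library totals, where the median of all genes stood at -0.05 and 0.09.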

How the data were processed

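Libraries were made with 10x Genomics 3' v3 chemistry. The authors deposited unnormalized UMI counts per gene and barcode from Cell Ranger on mm10. The file headers and the submitters' processing notes give version 3.1.0, while the methods of the study give another. Each of the 7 libraries has its own condition, whether from separate animals is not given in the sources used here, and 0 columns belonged to other series. The matrices hold 31053 genes.

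The limits on cells, the 1.5-fold limit and the limit of a UMI in at least 50% of cells follow the study's methods, which state them for its own comparisons. Totals per library ran from 22045775 to 125716982 UMIs over the cells kept, and median depth from 29369 to 56239 UMIs. Score genes were left out of the comparisons. UMIs were summed per bin and scaled to CPM, and ratios carry exact binomial 95% intervals, which cover counting error only. Genes with at least 10 UMIs in the 2 bins together were used for list medians. Cells were thinned to 20000 UMIs at random (seed 1) where shares were compared.

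For the 6 other libraries, 12 sums were fitted with edgeR 4.0.16 in R 4.3.3 (glmQLFit and glmQLFTest, TMM, genes kept with filterByExpr, library as a block), with Benjamini-Hochberg adjustment over all genes tested. Values with ± are the mean and SD of the CPM ratios of the 6 libraries, and the p-values beside them belong to the TMM fit. On simulated counts for this comparison (10413 genes, 200 changed), 100% of changed genes were recovered and 4.76% of calls were false. The simulation used 1 fixed spread for all genes and gave a changed gene the same change in every library. Changed genes were drawn from those with higher counts, and calls used the adjusted p without the 1.5-fold limit. These values therefore check the code and do not give the error rates of the real comparison. DESeq2 1.42.0 was an alternative. Python 3.11.15, numpy 2.4.6, scipy 1.17.1 and pandas 2.3.3 did the rest.

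The text names the score genes, the 15 highest and 15 lowest ratios among called genes, and in each list the 2 highest and 2 lowest ratios and the 2 highest levels. Cells, score, lists and named-gene rule were chosen with earlier results of these data known. Aldoa has 2 identifiers in the files and was not matched, leaving 13 of 14 glycolysis genes. Gene positions come from RefSeq's GRCm38.p6 table, the build of mm10. Promoter motifs were not analysed here.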

Additional observations from a re-analysis of the deposited data

Results flagged for a closer look

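Among 157 named genes with enough UMIs in each of the 6 libraries not used to choose the cells, 4 had one sign in all 4 libraries at LPS 0 or 1 h and the other sign in both libraries at LPS 4 h. For Ccl2 the mean log2 ratio of high over low bin was -1.56 (-2.29 to -1.24) in the earlier libraries and 0.39 (0.34 to 0.44) at 4 h. Ccl4 went from -1.32 (-2.09 to -0.83) to 0.52 (0.47 to 0.56), and Ccl3 from -1.27 (-1.93 to -0.77) to 0.32 (0.24 to 0.41). Slc2a1, the glucose transporter, had small values on both sides, -0.14 (-0.27 to -0.03) and 0.12 (0.11 to 0.13). None of these differences was tested, and the share of all genes that meet this rule was not counted. The count of 4 among 157 therefore only describes the named genes. The high bin of both libraries at 4 h began at a lower score than in the others (284 and 645 against 1369 to 2714 CPM), and its part in the pattern was not tested.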

How the results depend on the processing

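In Veh.LPS.0 the counts of higher and lower genes were 844 and 147. They were 1579 and 1254 with no limit on the share of cells (11887 genes in place of 6495), 461 and 83 with cells thinned to 20000 UMIs (4086 genes passed the share limit) and 474 and 53 when all cells were split into an upper and a lower bin. The other 12 settings gave 790 to 1113 higher and 132 to 214 lower genes. For the 6 other libraries (930 higher, 813 lower), leaving out 1 library gave 886 to 1091 higher and 708 to 840 lower genes. Without the library block there were 661 higher and 172 lower genes, and with library totals, an alternative chosen after seeing the data, 495 were lower. With that scaling 5 genes near 0 turned from below to above it by edgeR, Bax (0.00909), Tgfb1 (0.0140), Pkm (0.0132), Cox5a (0.0422) and mt-Atp6 (0.00648). After thinning, 11.3% of Con cells were at or under the low cutoff in place of 9.63%. The other alternatives (DESeq2, RLE factors, no filter, Veh.LPS.0 cutoffs in all libraries, thinned cells, all 7 libraries) left both counts within 1.5 times. For the named genes, 2038 edgeR values under an alternative kept their side of the adjusted p threshold of 0.05, 135 rose past it and 59 fell under it. The 1.5-fold limit was not part of this count. The causes of these shifts were not tested, beyond the number of genes or cells a setting leaves. The block pairs the high and low bin of each library, and the labels give no replicate numbers that would pair the conditions. Low-level genes limit the reading, since a gene under 10 UMIs was left out of list medians and 12 cells of Veh.LPS.4 reached the Veh.LPS.0 cutoff.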

Other observations

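Most called genes of Veh.LPS.0 were on no list, 693 of 844 higher and 125 of 147 lower, and edgeR called 68.8% and 74.4% of these in the same direction over the 6 other libraries. Over all genes tested there, 8.93% were called higher and 7.81% lower, and the same 5 genes set the bins. The genes named here are the 15 with the highest level on each side, chosen after their values were seen. Ptma (prothymosin alpha) had 2358, 3324, 3644 and 3725 CPM over the score bins (log2 ratio 0.66), though its counts may hold reads of pseudogene copies. The histone chaperones Anp32b and Anp32e had ratios of 0.65 and 1.14, and Dek and Nucks1, both chromatin proteins, 1.64 and 1.15. Pclaf, which binds PCNA, went from 102 to 692 CPM (2.77) and the linker histone H1f0 from 122 to 418 CPM (1.77). Arl6ip1, of the endoplasmic reticulum, had its largest step between bins 3 and 4, with 57.3, 65.9, 154 and 384 CPM (2.74, edgeR log2 2.20 in the other libraries, adjusted p = 2.97e-06). Calm2 (calmodulin) had 274, 281, 387 and 551 CPM (1.01, edgeR log2 0.79, adjusted p = 7.69e-06). Jpt1 (1.23) and the spliceosome protein Snrpd1 (0.74) were also higher and called by edgeR. Ubb (0.82), Ranbp1 (0.62), Sumo2 (0.61) and Serinc3 (0.63) passed the limit in Veh.LPS.0 but were under 1.5-fold in the edgeR fit, as was Ptma (0.58).

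Among the lower genes, Odc1, which makes putrescine, went from 1721 to 944 CPM (log2 ratio -0.87, edgeR log2 -0.62, adjusted p = 0.00246), and Sat1, which acetylates polyamines for export, from 373 to 196 CPM (-0.93, edgeR log2 -1.08, adjusted p = 1.02e-05). Hspa5 (BiP), the chaperone of the endoplasmic reticulum, had 1432 against 819 CPM (-0.81, edgeR adjusted p = 0.000791). Wfdc17, a secreted protein of macrophages, had 629 against 376 CPM (-0.74, edgeR log2 -1.07, adjusted p = 1.53e-05), and Plek (pleckstrin) 620 against 343 CPM (-0.85, edgeR adjusted p = 5.84e-05). Spink5 (-0.75), Neat1 (-1.28), Rhoc (-0.93), the growth factor Igf1 (-0.68) and Asph (-0.62) were likewise called lower by edgeR. Spata7, Srgn, Hmga2, Lilrb4a and Txnip, lower in Veh.LPS.0 by -0.93 to -0.60, were under 1.5-fold in the edgeR fit.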
